A study of Mus musculus with 29 samples.

Results

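The RNAs of 10 regulators of astrocyte fate, Sox9, Sox2, Nfia, Nfib, Nfix, Id3, Id4, Lhx2, Rorb and Emx2, were followed through TRAP-RNAseq of mouse brain. They were taken by gene symbol as 10 of the 36172 gene rows of the data, each symbol matching 1 row. The samples came from Aldh1l1-Cre/Ert2+; NuTRAP+ mice (Aldh1l1-NuTRAP), whose Cre is driven by the promoter of the astrocytic folate enzyme gene Aldh1l1, and from Cx3cr1-Cre/Ert2+; NuTRAP+ mice (Cx3cr1-NuTRAP), whose Cre is driven by that of the microglial fractalkine receptor gene Cx3cr1. All mice of both lines carried the NuTRAP allele. Tamoxifen was injected on 5 days (100 mg/kg) when they were about 3 months old, and Cre-expressing cells then make a ribosomal protein tagged with EGFP. A hemisected brain was homogenised and the tagged ribosomes were captured by anti-GFP beads. The positive fraction is what the beads held, the negative fraction what they left and the input the cleared homogenate, while tissue RNA was isolated conventionally. The 29 libraries were the positive and negative fractions of 3 Aldh1l1-NuTRAP mice (290, 293 and 294), the positive, negative and input fractions of 6 Cx3cr1-NuTRAP mice (155, 192, 194, 209, 210 and 277), and tissue of 5 of the latter (not 155). No input or tissue library of the Aldh1l1-NuTRAP line was analysed here, and the negative fraction still holds RNA of astrocytes that the beads did not take.

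Astrocytes arise from radial glia after neurogenesis, and the regulators chosen here act in that step or in the patterning that precedes it. SOX9 and SOX2 are HMG-box factors, and SOX9 with the nuclear factor I protein NFIA starts gliogenesis. ID proteins have a helix-loop-helix but no basic region, so they do not bind DNA themselves and hold the E proteins away from it, and their genes are classical targets of bone morphogenetic protein (BMP) signalling. LHX2 and EMX2 are homeodomain proteins that pattern the dorsal telencephalon, and RORB is an orphan nuclear receptor known both from cortical layer IV neurons and from astrocytes.

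The genes lie on 7 chromosomes of mm10, and their sizes differ widely. Sox2, a gene of 1 exon, spans 2456 bases of chromosome 3 (34650005 to 34652460, plus strand), and Id3 spans 1571 bases of chromosome 4 (136143822 to 136145392, plus strand). Nfia extends over 536934 bases of the same chromosome (97581943 to 98118876, plus strand) and Nfib over 215136 (82290173 to 82505308, minus strand). Sox9 lies on chromosome 11 (112782210 to 112787757, plus strand), Nfix on chromosome 8 (84707599 to 84800340, minus strand), Id4 on chromosome 13 (48261427 to 48264036, plus strand) and Lhx2 on chromosome 2 (38351308 to 38369728, plus strand). Rorb (18930609 to 19111196, minus strand) and Emx2 (59458690 to 59465357, plus strand) share chromosome 19.

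Promoter windows of RefSeq (GRCm38.p6, the assembly of mm10) were given for 8 of the 10 genes, as 13 windows. Those of Sox2 and of the Id genes Id3 and Id4 are shown as examples with 1 window each in the table, to set a gene with SOX and ROR letters beside a pair of paralogues that differ in their letters. Emx2 and Nfia, which also have 1 window each, are given by their motif counts. Each line is the 250 bases before the RefSeq start, on the strand of the gene, with matches to any of the letter motifs searched in capitals. In Sox2 the capitals mark TGACCT, the reverse complement of the ROR half-site AGGTCA, and the SOX site ACAAAG. In Id4 they mark the GC-rich SMAD1 site GGCGCC, and in Id3 no motif matched.
Sox2, chr3:34649745-34649994: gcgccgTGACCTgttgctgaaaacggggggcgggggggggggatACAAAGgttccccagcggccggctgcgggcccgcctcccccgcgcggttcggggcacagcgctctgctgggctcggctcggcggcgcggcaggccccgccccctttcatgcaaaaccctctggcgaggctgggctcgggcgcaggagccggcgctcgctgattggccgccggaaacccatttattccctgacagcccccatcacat
Id3, chr4:136143572-136143821: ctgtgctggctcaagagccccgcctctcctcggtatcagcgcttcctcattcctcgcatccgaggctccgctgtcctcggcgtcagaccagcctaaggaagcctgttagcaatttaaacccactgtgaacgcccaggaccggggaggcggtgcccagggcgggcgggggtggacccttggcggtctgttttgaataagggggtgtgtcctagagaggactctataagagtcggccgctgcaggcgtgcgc
Id4, chr13:48260866-48261115: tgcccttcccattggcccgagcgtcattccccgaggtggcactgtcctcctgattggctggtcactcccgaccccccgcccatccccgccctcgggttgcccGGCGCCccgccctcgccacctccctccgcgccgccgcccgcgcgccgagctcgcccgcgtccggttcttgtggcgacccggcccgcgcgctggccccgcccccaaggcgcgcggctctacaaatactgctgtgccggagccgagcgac

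In all, 7 letter motifs were searched on both strands of the whole windows, which also include the first bases of the gene. The full NFI palindrome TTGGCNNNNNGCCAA was in 0 of the 13 windows, and in 12 of all 32851 promoter windows (0.0365%). GGCGCC was in 1 window each of Id4, Lhx2, Nfix and Emx2, and in 11.9% of all windows. ACAAAG was in Sox2 and 1 Nfix window (18.7% of all windows), and ACAATG in Nfia and 1 Nfix window (12.6%). The LIM homeodomain site TAATTA was in Emx2 and 1 Nfix window (5.29%), AGGTCA in Sox2 and 2 Nfix windows (16.3%), and the E-box CANNTG, bound by E proteins, in 7 of the 13 windows (72.3% of all). The letters of AGGTCA and the E-box can overlap other motifs, and a match is a description of these letters, not a bound site. The windows of the regulators had a median GC content of 60.0%, against 52.7% over all windows.

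Total counts were 8782235 to 25137834 in the Aldh1l1-NuTRAP libraries and 4260949 to 26857866 in the Cx3cr1-NuTRAP libraries, and the lowest raw count of a regulator in any library was 60 (Emx2, tissue of mouse 210). Levels are given as CPM, the raw count of a gene per 1000000 counts of its library. The libraries of mouse 290 and the tissue library of mouse 210 were the shallowest and stood apart for several genes, as given beside the results. The genes whose promoters drive Cre followed the labels, with Aldh1l1 at 499 to 579 CPM in the positive and 62.5 to 86.8 in the negative fraction of its line, and Cx3cr1 at 198.5 to 435.5 CPM in the positive fraction and 25.0 to 28.8 in the input of the other. All 8 astrocyte markers were higher in the Aldh1l1 positive fraction, and all 6 microglial markers in the Cx3cr1 positive fraction.

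The first comparison asked how far RNA of these regulators was carried by astrocyte ribosomes. In Aldh1l1-NuTRAP mice 9 of the 10 were higher in the positive than in the negative fraction and 0 were lower (edgeR quasi-likelihood test, Benjamini-Hochberg adjusted p under 0.05). Over all 13319 genes tested, 26.8% were higher. Among these 9, fold changes ran from 6.64-fold to 12.1-fold for Id4, Sox9, Lhx2, Sox2, Emx2 and Id3. They ran from 1.79-fold to 4.12-fold for Nfix, Nfib and Nfia. The median of the 10 log2 fold changes was 2.85, beside 0.04 over all genes tested. Rorb, at 2.12 (4.35-fold, between the 2 ranges), missed the threshold. Scaled by library totals alone, 8 of the 10 were higher, the median of all genes moved to -0.31, and the calls over all genes split as 2436 higher and 4824 lower in place of 3569 and 3299. In bulk RNA, fewer cells of a type and less RNA per cell cannot be told apart.

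**Figure D1:**
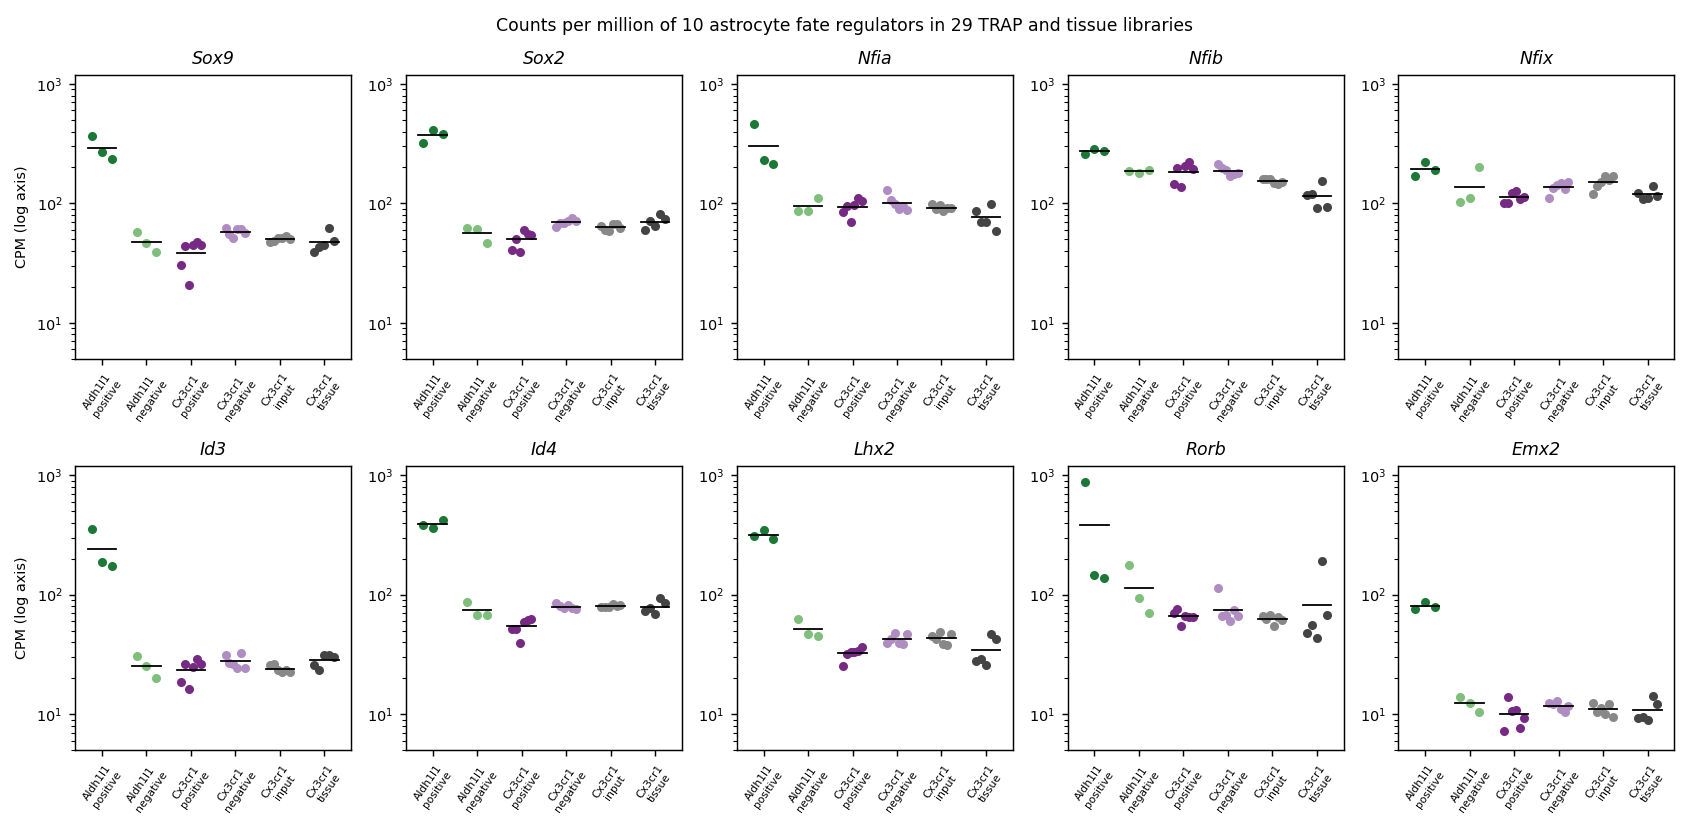
CPM of each regulator in all 29 libraries, on a log axis, with 1 point per library and a line at the mean of each group. For 8 of the 10 genes the 3 Aldh1l1 positive libraries lie above all other libraries, while for Nfix and Rorb they overlap other groups.

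Sox9, the nuclear marker of adult astrocytes, had 365, 268 and 237 CPM in the positive fractions of mice 290, 293 and 294, and 57.1, 46.3 and 39.1 CPM in their negative fractions. The lowest positive library stood far above the highest negative library, and mouse 290 was highest in both fractions. The fitted log2 fold change was 2.96 (SE 0.25, edgeR adjusted p = 0.000132), a fold of 7.79 after TMM scaling, whereas the plain ratio of mean CPM was 6.11. Within mice the log2 ratio after TMM scaling varied little, from 2.93 to 3.08.

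Sox2, which keeps neural stem cells undifferentiated and stays on in adult astrocytes, had 319, 410 and 383 CPM in the positive fractions of mice 290, 293 and 294, and 61.7, 60.7 and 46.9 CPM in the negative fractions. Mouse 290 was the lowest of the positive libraries here, unlike for Sox9. The log2 fold change was 3.06 (SE 0.19, edgeR adjusted p = 5.17e-05).

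Among the nuclear factor I genes, Nfia, which is needed for the onset of gliogenesis, had the largest fold. Its positive libraries had 465, 232 and 214 CPM in mice 290, 293 and 294, and its negative libraries 87.0, 85.6 and 110 CPM. The groups did not overlap, but the library of mouse 290 held about as much as both others added. The log2 fold change was 2.04 (SE 0.33, edgeR adjusted p = 0.00198), and the TMM-scaled log2 ratio within mice ranged from 1.34 to 2.82.

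Nfib, a paralogue that acts with Nfia in the developing forebrain, was evenly spread, with 260, 284 and 273 CPM in the positive and 186, 179 and 190 CPM in the negative fractions. Its log2 fold change was 0.90 (SE 0.13, edgeR adjusted p = 0.00126), and without mouse 293 it was 0.84 with an edgeR adjusted p of 0.0519. Nfix, another paralogue, had 171, 222 and 190 CPM in the positive and 102, 111 and 201 CPM in the negative fractions. The CPM of the groups overlapped, since the negative library of mouse 294 held more than its positive library and that of mouse 290. After TMM scaling the log2 ratio of mouse 294 was 0.30, although its plain CPM was lower in the positive fraction. The fitted log2 fold change of Nfix, 0.84 (SE 0.27), was just past the threshold (edgeR adjusted p = 0.0342). The call was lost by library totals alone (0.49, edgeR adjusted p = 0.170), with a filter at over 100 counts (0.75, edgeR adjusted p = 0.0549), without mouse 290 (0.72, edgeR adjusted p = 0.157) and without mouse 293 (0.59, edgeR adjusted p = 0.277).

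Id3, an inhibitor of E proteins, had the largest fold change of the 10. Its CPM was 355, 189 and 175 in the positive fractions of mice 290, 293 and 294, and 30.8, 25.1 and 20.2 in the negative fractions. Mouse 290 was highest in both, and the groups did not come near each other. The log2 fold change was 3.60 (SE 0.35, edgeR adjusted p = 0.000222), a fold of 12.1. Id4, the inhibitor best known from neural progenitors, had more even levels of 382, 362 and 422 CPM against 87.3, 67.7 and 67.5 CPM. Its log2 fold change was 2.73 (SE 0.18, edgeR adjusted p = 5.46e-05).

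Lhx2, a LIM homeodomain factor of cortical patterning, had 311, 349 and 290 CPM in the positive and 62.5, 46.9 and 45.2 CPM in the negative fractions of mice 290, 293 and 294. Emx2 had the lowest CPM of the set, with 75.7, 86.2 and 78.8 in the positive and 14.0, 12.4 and 10.4 in the negative fractions. For both homeodomain genes the positive libraries were close to each other and well apart from the negative libraries. The log2 fold changes were 2.96 (SE 0.20, edgeR adjusted p = 6.30e-05) for Lhx2 and 3.06 (SE 0.18, edgeR adjusted p = 4.51e-05) for Emx2, which had the smallest p of the set.

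**Figure D2:**
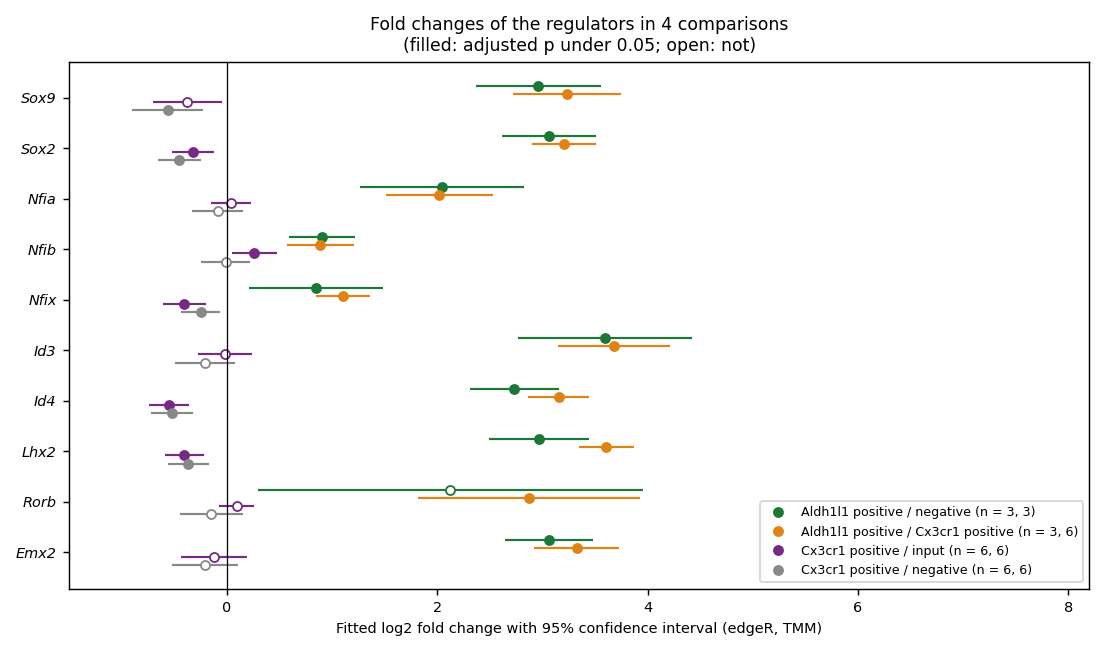
Fitted log2 fold changes (horizontal axis) of the 10 regulators in 4 comparisons, with bars for the 95% confidence interval, filled where the adjusted p is under 0.05. The comparisons with the Aldh1l1 positive fraction lie right of 0, from 0.84 to 3.68, and those within the Cx3cr1 line lie between -0.56 and 0.26.

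Rorb was set apart by 1 mouse. Its CPM was 871.5 in the positive fraction of mouse 290 but 146 and 139 in those of mice 293 and 294, and 176, 94.5 and 69.8 in the negative fractions. The groups overlapped, since the negative library of mouse 290 held more than the positive libraries of both other mice. Within each mouse the positive fraction was higher, by a TMM-scaled log2 ratio of 1.02 to 2.71. The log2 fold change of 2.12 (SE 0.78) missed the threshold (edgeR adjusted p = 0.0544), and with the mouse as a replicate block it was 1.65 (edgeR adjusted p = 0.00767). It was also past the threshold by DESeq2 (2.11, adjusted p = 0.0456) and with all 6 groups in one edgeR fit (2.09, adjusted p = 0.000862). Without mouse 290 it was 1.10, with an edgeR adjusted p of 0.000103.

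The highest Rorb levels also came from the shallowest libraries. In 6 of the 6 groups the library with the lowest total count had the highest Rorb CPM, which was so for 39 of 14269 genes with a mean of at least 1 CPM (0.273%). In tissue it was 192.6 CPM in mouse 210, with 4260949 counts in all, and 43.4 to 67.3 CPM in the other 4 libraries. In the Cx3cr1 negative fraction it was 113.8 CPM in mouse 155 and 60.2 to 74.0 CPM in the other 5. No other regulator had its highest level in the shallowest library of more than 4 groups (Sox9). Beyond the shallowest library the order did not always follow depth. In the Aldh1l1 negative fraction mouse 293, with 25137834 counts, had more Rorb than mouse 294, with 21017054. Mouse 290 gave the shallowest library of both Aldh1l1 groups, so depth and mouse cannot be told apart there. The part of depth in the Rorb result was not tested.

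**Figure D3:**
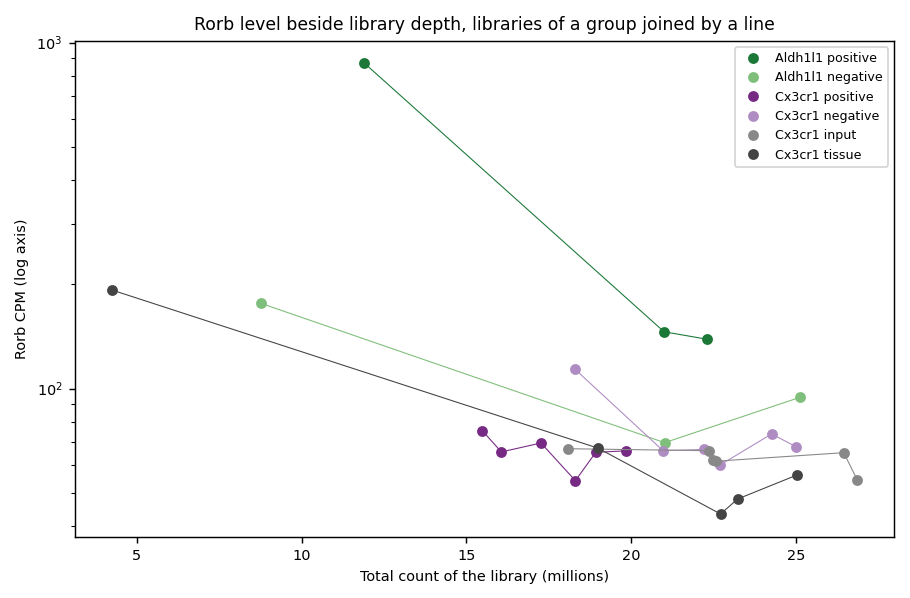
Rorb CPM (log axis) against the total count of the library, with 1 point per library and the libraries of each group joined by a line. In each of the 6 groups the leftmost point is the highest, as far as 871.5 CPM for the Aldh1l1 positive library of mouse 290 and 192.6 CPM for the tissue library of mouse 210.

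Compared per length of exonic sequence (GENCODE vM21), the order of the levels changed. The counts are of RefSeq genes, whose lengths can differ from these. Id4 has 3849 exonic bases in GENCODE but spans 2610 bases as counted, and Sox2 has 2057 but spans 2456. The places below, above all of Sox2 and Id4, therefore hold only for the GENCODE lengths. In the Aldh1l1 positive fraction Sox2 was highest at 180 ± 22.8 CPM per kb (SD, n = 3), followed by Id3 at 134 ± 55.8, Id4 at 101 ± 7.98, Lhx2 at 72.0 ± 6.76 and Sox9 at 70.2 ± 16.1. Rorb (34.8 ± 38.0), Nfia (27.9 ± 12.8), Emx2 (26.7 ± 1.79), Nfix (26.5 ± 3.53) and Nfib (18.2 ± 0.795) followed. The place of Rorb rested on mouse 290, at 78.7 CPM per kb against 13.2 and 12.5 in the other 2 libraries. Without that mouse its mean was 12.9 CPM per kb, the lowest of the 10, and Id4 (101.8) and Id3 (101.7) were level. By these lengths Sox2 overlapped Id3 in its libraries but not Id4, and Lhx2 overlapped Sox9. Neighbours from Rorb to Nfix overlapped as well, whereas Nfib lay below the lowest library of Emx2 and Nfix. In the Aldh1l1 negative fraction the first places on this scale were Sox2 (27.5 CPM per kb), Id4 (19.3) and Nfix (18.8), and in the Cx3cr1 input Sox2 (30.7), Id4 (20.9) and Nfix (20.5).

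The opposite pulldown asked what became of these RNAs in the Cx3cr1 positive fraction. In Cx3cr1-NuTRAP mice 4 of the 10 had lower levels on the beads than in the input (Sox2, Nfix, Id4 and Lhx2) and 1 was higher (Nfib), while over all 13838 genes tested 25.6% were lower and 23.3% were higher. The changes were small, from -0.55 to 0.26 on the log2 scale, with a median of -0.22 beside 0.00 over all genes. The 8 astrocyte markers had a median of -0.24, and 4 of them were lower. Their summed level was 2853 to 4573 CPM against 4617 to 4947 CPM in the input. That of the 5 neuronal markers was 3329 to 5487 against 5182 to 5435 CPM. The positive fraction thus still held RNA of other cells, and the part of that RNA in the levels of the regulators was not tested.

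Id4 fell most, from a lowest, median and highest CPM of 78.1, 79.7 and 83.1 in the input to 39.7, 55.6 and 62.9 in the positive fraction. The groups did not overlap, and the log2 fold change was -0.55 (SE 0.09, edgeR adjusted p = 0.000223). Lhx2 had 37.9, 44.2 and 48.3 CPM in the input and 25.5, 33.2 and 36.4 in the positive fraction, again without overlap (log2 fold change -0.41, edgeR adjusted p = 0.00163). Sox2 had 59.3, 63.4 and 66.8 CPM in the input and 39.3, 52.1 and 59.9 in the positive fraction, with a slight overlap (-0.33, edgeR adjusted p = 0.0114).

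Sox9 had 47.6, 50.7 and 53.4 CPM in the input and 20.7, 44.0 and 47.3 in the positive fraction, with no overlap in CPM. Its log2 fold change of -0.38 missed the threshold (edgeR adjusted p = 0.0556), and with the mouse as a replicate block it was -0.42 with an edgeR adjusted p of 0.0472 (by DESeq2 -0.36, adjusted p = 0.0453). The lowest value was that of mouse 194, whose positive library also had the highest Cx3cr1 (435.5 CPM). Nfix had 120, 153 and 171 CPM in the input and 101, 111 and 128 in the positive fraction, and its log2 fold change was -0.41 (edgeR adjusted p = 0.00282).

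Nfib was the 1 regulator called higher, at 145, 156 and 161 CPM in the input and 137, 196 and 220 in the positive fraction. The groups overlapped, 4 of 6 mice showed the direction, and the log2 fold change of 0.26 (edgeR adjusted p = 0.0452) was not past the threshold with the mouse as a replicate block (0.24, edgeR adjusted p = 0.105). The call was also lost by library totals alone (edgeR adjusted p = 0.0720), without the filter on low counts (0.26, edgeR adjusted p = 0.0502), and when mouse 192, 209, 210 or 277 was left out (0.19 to 0.28). Nfia (0.03), Id3 (-0.02), Rorb (0.09) and Emx2 (-0.12) were not called, with 95% confidence intervals that lay within -0.44 to 0.26.

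Against the negative fraction of the same mice 5 of the 10 were lower (Sox9, Sox2, Nfix, Id4 and Lhx2) and 0 were higher, while 11.6% of the 13776 genes tested were lower. This comparison shares its positive libraries with the preceding one. The log2 fold changes were -0.56 for Sox9 (edgeR adjusted p = 0.0192), -0.45 for Sox2 (0.00373), -0.52 for Id4 (0.00109), -0.37 for Lhx2 (0.0092) and -0.25 for Nfix (0.0446). All 6 mice showed these directions. Without mouse 192 only Sox2 and Id4 remained called, while over all genes the lower calls fell from 1593 to 570 of 13839. The Sox9 call was also lost without mouse 155 (-0.48, edgeR adjusted p = 0.0575). The Nfix call was lost without mouse 192, 194, 209, 210 or 277, with log2 fold changes of -0.27 to -0.21. It was also lost without the filter on low counts (-0.26, edgeR adjusted p = 0.0647) and with all 6 groups in one fit (-0.23, edgeR adjusted p = 0.163).

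Markers moved in this comparison as well. Of the 8 astrocyte markers 4 were lower in the positive fraction (median log2 fold change -0.36), led by Gja1 (-0.73) and Aqp4 (-0.69), with summed levels of 2853 to 4573 against 4306 to 4888 CPM. All 4 oligodendrocyte markers were lower (median -0.70), at 1049 to 2939 against 3938 to 4384 CPM, as were 2 of 3 precursor markers (35.1 to 48.1 against 55.3 to 77.8 CPM) and 5 of 7 oligodendrocyte transcription factors. Lower too were 1 marker each of neurons (Nefl, -0.26), mural cells (Pdgfrb, -0.54), choroid plexus (Kl, -0.71) and neuroblasts (Dcx, -0.29). All 6 microglial markers were higher (1551 to 3854 against 179 to 209 CPM), as was Pecam1 (0.85) of the 4 endothelial markers. The part of these cells in the falls of the 5 regulators was not tested.

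**Figure D4:**
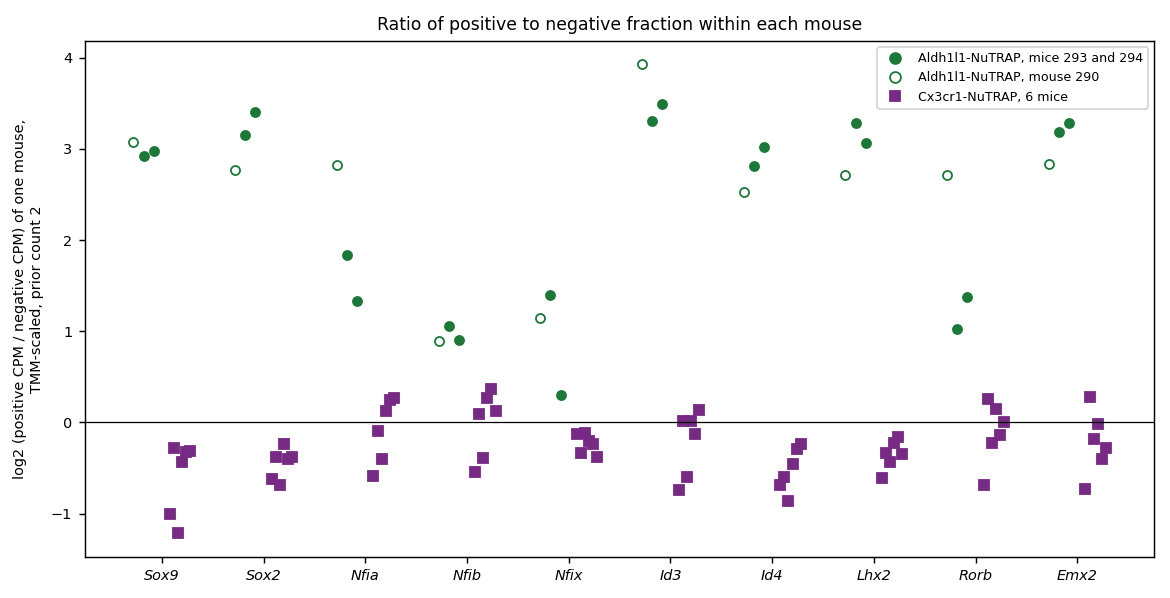
TMM-scaled log2 ratio of the positive to the negative fraction within each mouse (vertical axis) for the 10 regulators, as circles for the 3 Aldh1l1-NuTRAP mice (open for mouse 290) and squares for the 6 Cx3cr1-NuTRAP mice. All circles lie above 0 on this scale, from 0.30 (Nfix in mouse 294) to 3.93, and the squares lie between -1.22 and 0.37.

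The lines were then compared directly. In the paper, Cx3cr1 brains were collected longer after tamoxifen than the Aldh1l1 brains taken for flow cytometry and imaging. The paper does not state this time for the Aldh1l1 TRAP samples. If it was the same, line and time after tamoxifen cannot be told apart here. All 10 regulators were higher in the Aldh1l1 than in the Cx3cr1 positive fraction, where 30.6% of the 13676 genes tested were higher. Scaled by library totals alone all 10 were still higher, the median of all genes was -0.39, and the calls over all genes split as 2875 higher and 6312 lower in place of 4188 and 4530. The log2 difference was largest for Id3 (3.68, SE 0.24), Lhx2 (3.61, SE 0.12) and Emx2 (3.32, SE 0.18) and smallest for Nfix (1.10, SE 0.12) and Nfib (0.89, SE 0.14, edgeR adjusted p = 0.000279). Rorb, at 2.88 (SE 0.48), was past the threshold here (edgeR adjusted p = 0.000346), and its libraries did not overlap, with 139 CPM or more in the Aldh1l1 and 75.6 CPM or less in the Cx3cr1 positive fraction. Without mouse 290 the difference for Rorb was 1.395 (edgeR adjusted p = 4.39e-06).

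The ratio of positive to negative fraction also differed between the lines for all 10 (interaction term of edgeR), in favour of the Aldh1l1 line, where 25.5% of 13983 genes had a larger ratio. The difference in log2 ratio was 3.77 for Id3, 3.49 for Sox9, 3.47 for Sox2, 3.29 for Lhx2, 3.23 for Emx2 and 3.22 for Id4. It was 2.09 for Nfia, 1.05 for Nfix and 0.88 for Nfib, and 2.24 for Rorb (SE 0.63, edgeR adjusted p = 0.00592), which was 1.25 without mouse 290 (edgeR adjusted p = 0.00115). The 9 members other than Rorb had adjusted p of 0.000841 or less. The median difference over all genes was -0.11, and by library totals alone it was -0.39, with 2600 larger and 5719 smaller ratios called in place of 3572 and 4179 and all 10 regulators still called.

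Markers of other cell types moved with both comparisons between the lines. All 3 choroid plexus markers were higher in the Aldh1l1 than in the Cx3cr1 positive fraction, with a median log2 difference of 2.38 and summed levels of 2803 to 3327 against 207 to 1011 CPM, and all 3 had a larger ratio in the Aldh1l1 line (median 3.10). Of the 2 tested mural cell markers Pdgfrb was higher (2.16 between the positive fractions and 2.11 for the ratio) and Rgs5 was not called (-0.17 and -0.15), with summed levels of 47.0 to 62.3 against 14.8 to 33.7 CPM. Of the ependymal markers Foxj1 was higher (1.75 and 1.96) and Ccdc153 was not called (0.49 and 0.27). Tmem212, tested only for the ratio, was not called (-0.03). The summed levels of this list were 38.3 to 49.2 against 12.9 to 24.3 CPM. All 8 astrocyte markers were higher in both comparisons (medians 3.19 and 3.55), all 6 microglial, all 5 neuronal and all 4 oligodendrocyte markers were lower, and of the 4 endothelial markers 1 was lower between the positive fractions and 2 for the ratio. The part of these cells in the differences of the 10 regulators was not tested.

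The negative fractions of both lines, the RNA that the beads left, were set side by side. None of the 10 regulators was called by edgeR, where 34 of 13613 genes (0.25%) were called, and 0 of the 10 by DESeq2, which called 517 genes. The edgeR calls were 17 higher and 17 lower, and 8 and 20 by library totals alone. At an unadjusted p under 0.05 there were 3 regulators, Sox2 (-0.27), Lhx2 (0.31) and Rorb (0.64), and 1827 of all genes. The 95% confidence interval of the log2 difference ran from -0.53 to 0.03 for Sox9 and from -0.30 to 0.17 for Id4. The differences between the positive fractions, 3.24 for Sox9 and 3.15 for Id4, lie outside these intervals. For Rorb the interval ran from 0.0079 to 1.27.

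The input was also compared with tissue RNA of the same line, to ask whether the homogenate and conventionally isolated RNA differed for these genes. Nfib (log2 fold change 0.44, edgeR adjusted p = 0.00881) and Nfix (0.34, edgeR adjusted p = 0.0137) were higher in the input and Id3 (-0.23, edgeR adjusted p = 0.049) was lower. Over all 13608 genes tested 16.3% were higher and 14.2% lower. In tissue Nfib had 118, 119, 90.9, 154 and 93.1 CPM in mice 192, 194, 209, 210 and 277, overlapping the input only through mouse 210. Without mouse 210, whose tissue library was the shallowest, 5 regulators were higher (Nfib, Nfix, Nfia, Sox9 and Lhx2) and 0 lower. Over all 13929 genes of that fit 2697 were higher and 2698 lower, in place of 2217 and 1927 of 13608. Rorb went from -0.30 to 0.21, uncalled in both. Nfia was also called without the filter on low counts (0.29, edgeR adjusted p = 0.0436). With the mouse as a replicate block the Id3 call was lost (-0.25, edgeR adjusted p = 0.107), as it was by library totals alone, without the filter on low counts, with all 6 groups in one fit and without mouse 209, 210 or 277 (edgeR adjusted p of 0.0612 to 0.273). The Nfix call was lost with all 6 groups in one fit (0.31, edgeR adjusted p = 0.0908) and without mouse 194, 209 or 277 (0.26 to 0.31).

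Genes of other cell types also differed between input and tissue. Of 10 neuronal transcription factors 9 were higher in the input, with a median log2 fold change of 0.63 and a summed level of 991 to 1143 CPM against 580 to 873 CPM in tissue. The 5 neuronal markers went both ways, with 2 higher, 2 lower and a median of 0.14, and their sums of 5182 to 5435 and 4524 to 5371 CPM overlapped. All 4 endothelial markers were lower (median -1.33), at a sum of 73.3 to 91.4 against 125 to 231 CPM, as were all 4 oligodendrocyte markers (median -0.70), at 3737 to 4278 against 5474 to 7457 CPM. Both tested ependymal markers were lower (median -0.99; 18.5 to 24.0 against 29.04 to 50.0 CPM), and so were both tested mural cell markers (median -0.81) and 2 of 3 oligodendrocyte precursor markers. Of the 3 choroid plexus markers 2 were higher (median 0.82), with a sum of 794 to 967 against 183 to 935 CPM. Of the 8 astrocyte markers 2 were lower and 0 higher (median -0.17), and of 7 oligodendrocyte factors 4 were lower and 1 higher. The part of these cells in the Nfib, Nfix and Id3 differences was not tested.

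Other genes of the same families and pathways were read from lists. Of 18 further transcription factors of astrocytes and radial glia tested, 18 were higher in the Aldh1l1 positive fraction, with a median log2 fold change of 2.29. Dbx2 (3.82), a homeodomain factor, and Hopx (3.76), an atypical homeodomain protein of radial glia, had the largest values, beyond those of all 10 regulators. In the Cx3cr1 line 7 of 19 were lower than in the input, led by Gli2 (-0.89) and Glis3 (-0.77), and 1 was higher, Zbtb20 (0.98).

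Paralogues did not all move alike. In the Aldh1l1 positive fraction 7 of 12 were higher and 3 lower. Sox21 (3.14), a SOXB gene like Sox2, and Id1 (2.65) rose most, and Sox10 (-1.90), the oligodendrocyte SOX factor, and Lhx9 (-1.30) fell most. Emx1 (-1.08, edgeR adjusted p = 0.0066), the closest relative of Emx2 and known from cortical excitatory neurons, was lower where Emx2 was higher. Rora (0.85, edgeR adjusted p = 0.1), a relative of Rorb, was not called. In the Cx3cr1 line 4 of 12 were lower than in the input, led by Sox10 and Sox8 (both -0.64), and 0 were higher.

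**Figure D5:**
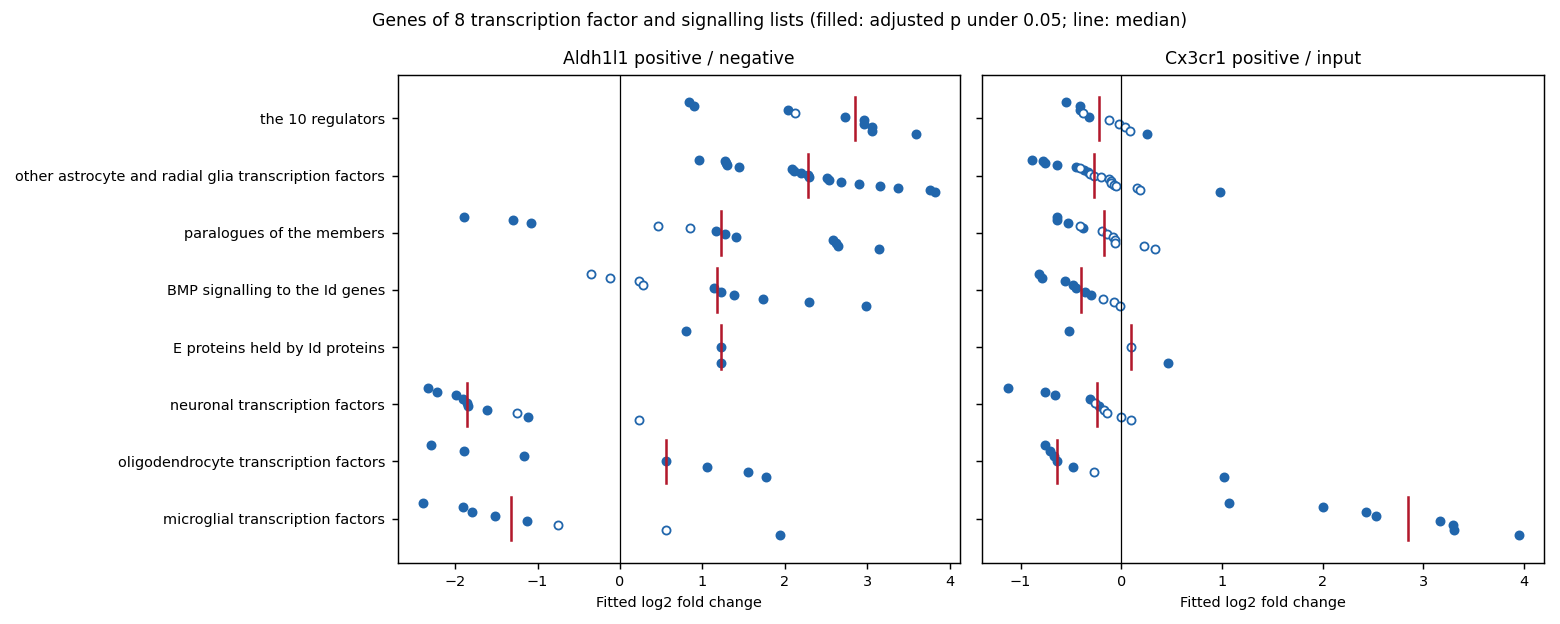
Fitted log2 fold changes (horizontal axis) of the genes of 8 lists in the Aldh1l1 positive against negative fraction and in the Cx3cr1 positive fraction against input, with a red line at the median of each list and filled points for an adjusted p under 0.05. The 10 regulators and the further astrocyte factors lie right of 0 on the left side, with medians of 2.85 and 2.29, and the microglial factors lie right of 0 on the right side, with a median of 2.85.

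Of 10 tested genes of BMP signalling to the Id genes, 6 were higher in the Aldh1l1 positive fraction and 0 lower, with a median of 1.18. The receptors Bmpr1b (2.99) and Bmpr1a (2.30) led, ahead of the ligand Bmp7 (1.74), while the SMAD genes Smad1 (0.23) and Smad4 (0.28) were not called. In the Cx3cr1 line 7 of the 10 were lower than in the input, led by Bmpr1b (-0.81) and Bmp6 (-0.79). The E protein genes, whose products the ID proteins hold, were higher in the Aldh1l1 positive fraction in 3 of 3 cases, with Tcf3 at 1.23, Tcf12 at 1.22 and Tcf4 at 0.80. In the Cx3cr1 positive fraction Tcf3 was higher than in the input (0.46) and Tcf12 lower (-0.52).

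Transcription factors of other lineages served as the contrast. Of 10 neuronal factors 8 were lower in the Aldh1l1 positive fraction and 0 higher, led by Neurod1 (-2.33) and Tbr1 (-2.22). Of 8 microglial factors 5 were lower, led by Ikzf1 (-2.39) and Sfpi1 (-1.90), and 1 higher, Cebpa (1.95), which encodes a factor shared by several lineages. Of 7 oligodendrocyte factors 3 were lower, led by St18 (-2.30) and Sox10 (-1.90), and 4 were higher, led by Nkx2-2 (1.77) and Olig1 (1.55), which are known from glial progenitors. In the Cx3cr1 positive fraction 8 of 8 microglial factors were higher than in the input, led by Sfpi1 (3.95) and Irf5 (3.31), and 5 of 10 neuronal factors, among them Neurod1 (-0.76) and Tbr1 (-0.66), and 5 of 7 oligodendrocyte factors, led by St18 (-0.76) and Olig2 (-0.71), were lower. Zfp488, of the oligodendrocyte list, was higher (1.03).

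Markers of other cell types were read in the same libraries. In the Aldh1l1 positive fraction 6 of 6 microglial, 5 of 5 neuronal, 4 of 4 oligodendrocyte, 3 of 3 oligodendrocyte precursor and 2 of 3 neuroblast markers were lower, and 0 of 4 endothelial markers were called. All 3 choroid plexus markers were higher, and their summed level was 2803 to 3327 CPM in the positive and 464 to 611 CPM in the negative fraction, with Ttr at a log2 fold change of 2.85, Folr1 at 2.58 and Kl at 2.04. Of the 2 tested ependymal markers Foxj1 was higher (1.72) and Ccdc153 was not called (-0.11), with a summed level of the list of 38.3 to 49.2 against 16.3 to 29.2 CPM. Of the 2 tested mural cell markers Pdgfrb was higher (1.62) and Rgs5 was not called (-0.68), with a summed level of the list of 47.0 to 62.3 against 25.0 to 40.6 CPM and 1 of its 3 genes at 0 in every library. The part of these cells in the levels of the 10 regulators was not tested. Gfap (3.62) and S100b (3.55) rose most among the astrocyte markers, and Mog (-3.27), Csf1r (-2.58), Pdgfra (-2.18), Dcx (-2.15) and Syt1 (-1.81) fell most among the oligodendrocyte, microglial, precursor, neuroblast and neuronal markers.

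In the Cx3cr1 positive fraction the summed astrocyte markers were 2853 to 4573 CPM, against 4617 to 4947 CPM in the input, and 4 of the 8 were lower, led by Aqp4 (-0.98) and Gja1 (-0.79). The microglial markers were 1551 to 3854 CPM against 194 to 211 CPM in the input, led by Aif1 (4.01) and C1qa (3.92), and 2 of 4 endothelial markers, Pecam1 (0.78) and Cldn5 (0.61), were higher. All 4 oligodendrocyte, all 3 precursor, both tested mural cell and 2 of 5 neuronal markers were lower, with Mobp at -0.65, Pdgfra at -1.27, Rgs5 at -0.87 and Syt1 at -0.52, as were Kl (-0.92) of the choroid plexus and Dcx (-0.55) of the neuroblasts.

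Some annotated genes overlap the regulators. Sox2 lies inside Sox2ot, a long noncoding RNA gene of the same strand, whose RNA was not higher in the positive fraction. Sox2ot had 20.7, 33.9 and 28.4 CPM in the positive and 50.5, 48.8 and 45.9 CPM in the negative fractions of mice 290, 293 and 294, with every positive library below every negative library. The fitted log2 fold change of Sox2ot was -0.46 (edgeR adjusted p = 0.0859), which is not past the threshold. How the reads of the shared stretch were divided between Sox2 and Sox2ot is not given in the sources used here, so the values of both are uncertain to that extent.

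E130114P18Rik, a noncoding RNA gene on the opposite strand that overlaps the start of Nfia, had 53.8, 36.1 and 42.0 CPM in the positive and 1.37, 5.08 and 5.99 CPM in the negative fractions. The groups were far apart, and the log2 fold change of 3.70 (edgeR adjusted p = 0.000551) was larger than that of Nfia. A330033J07Rik, opposite to Id4, rose from 1.11 to 1.82 CPM in the negative to 6.18 to 8.45 CPM in the positive fraction (log2 fold change 2.75, edgeR adjusted p = 0.000272). The libraries were strand-specific. The other 4 genes that overlap a regulator were at 0 in every group.

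Over the 29 libraries the gene outside the set whose log2 CPM was most like that of Sox2 was Glul, the glutamine synthetase gene of astrocytes (Pearson r = 0.991). The most alike gene was Slc13a3 for Sox9 (0.985), Prkcdbp for Id3 (0.993), Scg3 for Id4 (0.991), Mfge8 for Lhx2 (0.981) and Vhl for Emx2 (0.979). It was Rnf182 for Nfia (0.966), the E protein gene Tcf4 for Nfib (0.972), Nr1d1 for Nfix (0.907) and R74862 for Rorb (0.943). Among the 10 regulators, r ranged from 0.524 between Nfix and Rorb to 0.986 between Sox2 and Id4. The libraries share mice, fractions and depth, and these correlations are given as a description.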

How the data were processed

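Strand-specific libraries of polyA RNA were made by the authors. After trimming, they aligned the reads against mm10 with the Strand NGS software, counting RefSeq genes. The raw values in the deposited table are expected counts per gene, without normalization, and 82.8% of the nonzero values are not whole. The table also holds log2 values that the authors made by DESeq normalization, which were not used. Each library was assigned by the label of its column, with 0 columns left over.

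CPM was computed from the unrounded counts and library totals (4260949 to 26857866). For tests the counts were rounded, genes with over 20 counts in every library of at least 1 compared group were kept, and edgeR 4.0.16 (R 4.3.3) was run with TMM scaling, robust quasi-likelihood and Benjamini-Hochberg adjustment over all genes tested, two-sided, at 0.05. Steps were tested on simulated data. DESeq2 1.42.0, other scalings and filters, all groups in one fit, the mouse as a block and leaving out each mouse were alternatives. Other steps used matplotlib 3.10.9, numpy 2.4.6, pandas 2.3.3 and Python 3.11.15. Per-mouse log2 ratios are of TMM-scaled CPM with a prior count of 2.

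Fractions of one mouse come from the same animal. The main fits had no block, as the study's RNA-seq methods state none. Residuals of the paired libraries correlated above 0.1 in 3 of 3 pairs of the Aldh1l1 fractions, at 0.44 to 0.64. They did so in 3 of 6 pairs of the Cx3cr1 positive fraction with input, 3 of 6 with the negative fraction and 0 of 5 pairs of input and tissue. The pairs of the Cx3cr1 line ran from -0.29 to 0.24. With the mouse as a block, 4927 genes were higher and 4503 lower between the Aldh1l1 fractions, in place of 3569 and 3299.

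Positions are those of the deposited table. Exon lengths are from GENCODE vM21 and promoters from RefSeq, both of GRCm38. The members and the 17 gene lists were chosen with earlier results of these data known. All members were named, with the 2 largest rises and falls among the called genes of each list, cut short for markers, the most correlated gene outside the set for each member, and overlapping genes. Some genes that this rule picks are not reported here. The check of Rorb against depth and the order of levels without each mouse were added, and Emx1, Rora, Bmp7, Smad1 and Smad4 were named, after their values were seen.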

Additional observations from a re-analysis of the deposited data

Results flagged for a closer look

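The ratio of positive to negative fraction differed between the lines for all 10 regulators by the interaction test of edgeR. The difference in log2 ratio, Aldh1l1 minus Cx3cr1 line, was 3.77 for Id3, 3.49 for Sox9, 3.47 for Sox2, 3.29 for Lhx2, 3.23 for Emx2, 3.22 for Id4, 2.24 for Rorb, 2.09 for Nfia, 1.05 for Nfix and 0.88 for Nfib. Without mouse 290 the value for Rorb was 1.25 (edgeR adjusted p = 0.00115).

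In 48 sets of libraries of the Cx3cr1 line, which are the 10 regulators with Aldh1l1 and Cx3cr1 in 4 fractions, 4 had a library far from the others by Dixon's test, which chance gives in about 1 of 20 sets. Rorb was 113.8 CPM in the negative fraction of mouse 155, against 60.2 to 74.0 CPM in the others, and 192.6 CPM in the tissue of mouse 210, against 43.4 to 67.3 CPM. Cx3cr1 was 435.5 CPM in the positive fraction of mouse 194, against 198.5 to 284.6 CPM, and 39.6 CPM in the tissue of mouse 210, against 21.7 to 25.9 CPM.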

How the results depend on the processing

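Of 1018 values of single genes under alternatives, 945 kept their direction and their side of the threshold, 33 lost the call, 10 gained it and 30 changed sign, all 30 of them for values not called in the main fits. Leaving out a mouse, 7 to 9 of the 10 regulators were called between the Aldh1l1 fractions (main 9), 4 to 5 between Cx3cr1 positive fraction and input (main 5), 2 to 4 between positive and negative fraction (main 5, with 2 without mouse 192), and 1 to 5 between input and tissue (main 3, with 1 without mouse 209 or 277 and 5 without mouse 210). With all 6 groups in one fit, 1 was called between input and tissue. The calls over all genes moved too. Without mouse 192 the lower calls fell from 1593 to 570 between the Cx3cr1 positive and negative fractions. Without mouse 210 the calls between input and tissue rose from 2217 to 2697 higher and from 1927 to 2698 lower. The mouse as a replicate block changed the Rorb, Nfib, Sox9 and Id3 calls given above and no other call of a regulator. DESeq2 gave no adjusted p for Rorb between the positive fractions or for the interaction. Uncalled values crossed 0 with the filter at 100 counts and with all groups in one fit, at 0.021 and 0.0044 for Id3 between positive fraction and input, and at 0.0050 and 0.0061 for Nfib between positive and negative fraction. Nfib between the negative fractions was -0.025 by library totals and -0.011 without the filter, and Id4 between input and tissue was -0.014 with all groups in one fit. Leaving out a mouse, the log2 values ran from -0.015 to 0.15 (Nfia) and -0.092 to 0.084 (Id3) between positive fraction and input, and from -0.16 to 0.019 (Nfia) and -0.089 to 0.084 (Nfib) between positive and negative fraction. Between the negative fractions they ran from -0.19 to 0.020 (Nfia), -0.023 to 0.060 (Nfib), -0.31 to 0.20 (Nfix), -0.28 to 0.053 (Id3), -0.23 to 0.0076 (Id4) and -0.033 to 0.21 (Emx2), and between input and tissue from -0.054 to 0.074 (Id4) and -0.48 to 0.21 (Rorb). The cause was not tested. The 3 Aldh1l1 mice and the shallow libraries of mice 290 and 210 limit the precision.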
